A study of Mus musculus with 12 samples.

Results

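Fatty acid oxidation genes and targets of the nuclear receptor PPAR-alpha were described here as a set of 35 genes, chosen by gene symbol and matched to the Ensembl mouse identifiers of the deposited count table. All 35 were among its 27022 listed genes. By role in the pathway, 17 genes of the carnitine shuttle, the mitochondrial cycle, its auxiliary enzymes and its electron transfer formed the mitochondrial branch and 5 genes of the peroxisomal cycle with its auxiliary reductase the peroxisomal branch, while 2 serve both compartments. The other 11 take no part in either cycle and were kept outside both branches, also where their product is mitochondrial or peroxisomal, as for Acot2, Acot4, Bdh1 and Pdk4. The set holds Ppara itself, genes of uptake, binding and activation of fatty acids, the carnitine shuttle, the enzymes of chain shortening, acyl-CoA thioesterases and other target genes. The liver RNA came from 6 female mice of the inbred SJL/J strain, all of which received the control diet with 50 ppm iron from their arrival at 3 weeks of age. The 3 iron-loaded mice were changed at 6 weeks to a diet with 2% carbonyl iron, the 3 control mice stayed on the first diet, and tissues were collected at 11 weeks after a morning fast. The mice were housed 4 to a cage and 1 cage was changed, so diet and cage cannot be told apart. Each RNA was made into a Trad-KAPA library, which covers whole transcripts, and into a 3’-LEXO library, whose reads come mostly from the end of the transcript.

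In mitochondrial oxidation, long-chain fatty acids are activated to acyl-CoA, carried across the inner membrane as acylcarnitines and shortened in repeated cycles of dehydrogenation, hydration, a further dehydrogenation and thiolysis. Peroxisomes run a similar cycle on very long and branched chains and pass the shortened products on. In liver, PPAR-alpha is activated by fatty acids, pairs with a retinoid X receptor and raises transcription of many genes of both branches, above all in fasting.

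The 12 libraries held between 10724672 and 16553616 counts. A level in CPM, a gene's counts divided by the total of its library and multiplied by 1000000, is comparable between libraries of a kit. Counting noise was small beside the spread between mice, and iron-loaded mice 2 and 3 were far more alike than any other pair of 1 group (chi-square per degree of freedom 7.14 in Trad-KAPA and 7.28 in 3’-LEXO, against 22.7 to 76.4). The summed level of 8 hepatocyte markers overlapped between the diets in both kits, at 144800 to 156000 CPM in control and 115900 to 157200 CPM in iron-loaded mice in Trad-KAPA. Most of this sum was Alb. Within the list, Ttr was lower and Tat higher in iron-loaded mice, each without overlap in both kits. Of the adipocyte markers, Retn and Lep were not listed, and the summed level of the list was at most 0.215 CPM. The 10 macrophage markers summed to 381 to 608 CPM in control and 691 to 753 CPM in iron-loaded mice in Trad-KAPA, and to 883 to 1157 and 1165 to 1419 CPM in 3’-LEXO. The 3’-LEXO sums were only narrowly apart. There Marco had 224 to 330 counts in control and 934 to 3031 in iron-loaded libraries. All iron-loaded libraries were above all control libraries for 7 of 10 tested markers in Trad-KAPA, against 24.7% of all genes. In 3’-LEXO this held for 3 of 9, against 18.5%. The other lists overlapped between the diets in Trad-KAPA, apart from the bile duct list at 6.04 to 6.497 and 4.65 to 5.89 CPM, and spanned 252 to 353 CPM for endothelial, 234 to 347 for stellate, 4.65 to 8.16 for lymphocyte and 16.4 to 151 for red cell markers. With 3’-LEXO the endothelial list was lower in iron-loaded mice without overlap, at 299 to 373 and 254 to 281.5 CPM, and so was the bile duct list, at 12.3 to 16.2 and 9.82 to 11.5 CPM. Of the macrophage markers, 4 of 10 tested in Trad-KAPA were called higher (Vsig4, Marco, Gpnmb and Trem2), and of 9 tested with 3’-LEXO only Marco and Gpnmb. Of the endothelial markers, Lyve1 was called higher in both kits and Stab2 lower with 3’-LEXO. The only hepatocyte marker called was Tat, higher with 3’-LEXO, and the only stellate marker Des, lower in Trad-KAPA. No lymphocyte, bile duct or red cell marker was called. Of all genes tested, 8.77% were called higher and 8.37% lower in Trad-KAPA, and 3.17% and 2.92% with 3’-LEXO. As this is bulk tissue, fewer cells of a type and less RNA per cell cannot be told apart, and the part of other cell types in the changes below was not tested.

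On the iron-loaded diet, 14 of the 35 genes fell in Trad-KAPA and none rose, and 4 fell in 3’-LEXO with none rising. A gene was called at an adjusted p below 0.05 in edgeR's quasi-likelihood test over all genes tested in a kit. Of the 13151 genes tested in Trad-KAPA, 8.37% were called lower and 8.77% higher, against 40.0% of the 35 lower. Of the 13301 tested in 3’-LEXO, 2.92% were called lower and 3.17% higher, against 11.4% of the 35 lower. The 35 genes were chosen with earlier results of these data known, so these shares describe the set and do not test it. Plin2, Acot1, Cpt2 and Acaa1b were called lower in both kits, which was the case for 2.55% of the 12229 genes tested in both. The 35 genes had a median log2 fold change of -0.39 with Trad-KAPA and -0.28 with 3’-LEXO, while the medians of all genes tested were 0.02 and 0.01. The Trad-KAPA value was below 0 for 32 genes and the 3’-LEXO value for 30. In Trad-KAPA 20 of the 35 genes had all iron-loaded libraries below all control libraries, against 16.6% of all genes tested, and in 3’-LEXO this held for 12 genes, against 12.8%. No gene of the set had all iron-loaded libraries above all control libraries in either kit, against 24.7% of all genes tested in Trad-KAPA and 18.5% of those in 3’-LEXO.

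The number of calls depended on which mice were included, for all genes tested as for the set. Without control mouse 2 or without control mouse 3, 5 genes were called in Trad-KAPA, namely Acot1, Cpt2, Ehhadh, Plin2 and Vnn1 in both cases. Without iron-loaded mouse 2 or 3 there were 7 calls, which added Acaa1b and Fabp1, and without iron-loaded mouse 1 there were 16. In 3’-LEXO only Plin2 was called without control mouse 2, without control mouse 3 or without iron-loaded mouse 3. With the counts of iron-loaded mice 2 and 3 summed into 1 library, an alternative chosen after seeing the data, 7 genes were called in Trad-KAPA and 2, Acot1 and Plin2, in 3’-LEXO. Over all genes, the 2255 Trad-KAPA calls became 841 without control mouse 2, 1033 without control mouse 3 and 2803 without iron-loaded mouse 1. The 811 calls over all genes in 3’-LEXO became 263, 199 and 871 in the same fits.

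**Figure D1:**
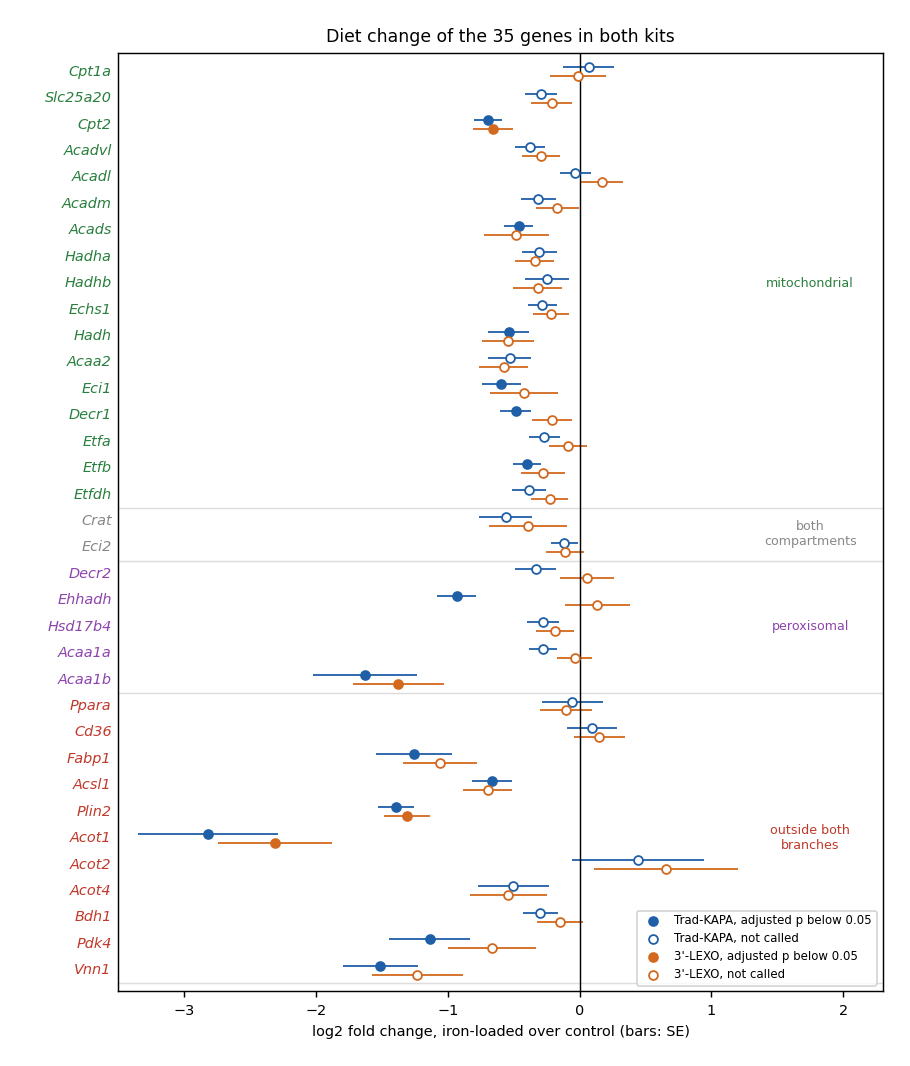
The log2 fold change of iron-loaded over control libraries with its SE is drawn for each of the 35 genes, in Trad-KAPA (blue) and 3’-LEXO (orange), grouped by branch, with called genes as filled points. All filled points lie left of 0, 14 of them blue and 4 orange, and the points of Ehhadh lie on opposite sides of 0, the blue at -0.93 and the orange at 0.14.

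The mitochondrial branch had 6 of 17 genes called lower in Trad-KAPA and 1 of 17 in 3’-LEXO, with median log2 fold changes of -0.38 and -0.28. The peroxisomal branch had 2 of 5 called lower in Trad-KAPA and 1 of 5 in 3’-LEXO, with medians of -0.33 and -0.04. Of the 11 genes outside both branches, 6 were called lower in Trad-KAPA, 2 of them also by 3’-LEXO, with medians of -0.67 in both kits. For comparison, Trad-KAPA called 8.37% of its tested genes lower, while 3’-LEXO called 2.92%. The 3’-LEXO calls of the mitochondrial and peroxisomal branches were 1 gene each, Cpt2 and Acaa1b, too few to describe a branch. Whether the branches differed from each other was not tested. Together the 35 genes took 1.15% ± 0.158 (SD, n = 3) of the Trad-KAPA counts in control mice and 0.789% ± 0.0254 in iron-loaded mice. In 3’-LEXO the shares were 1.64% ± 0.316 and 1.08% ± 0.109. The peroxisomal genes took 0.189% ± 0.0298 of the counts in control and 0.113% ± 0.0115 in iron-loaded mice in Trad-KAPA, against 0.189% ± 0.0311 and 0.104% ± 0.0233 with 3’-LEXO. For the mitochondrial genes the Trad-KAPA shares were 0.428% ± 0.0308 and 0.361% ± 0.0205, and the 3’-LEXO shares 0.510% ± 0.0394 and 0.424% ± 0.00698. The control and iron-loaded libraries did not overlap in any of these shares. Without Acaa1b, the other 4 peroxisomal genes took 0.126% ± 0.0139 and 0.0913% ± 0.00137 of the Trad-KAPA counts, again without overlap, but 0.0480% ± 0.00399 and 0.0481% ± 0.00263 of the 3’-LEXO counts, with overlap, so the lower 3’-LEXO share of the branch came from Acaa1b.

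**Figure D2:**
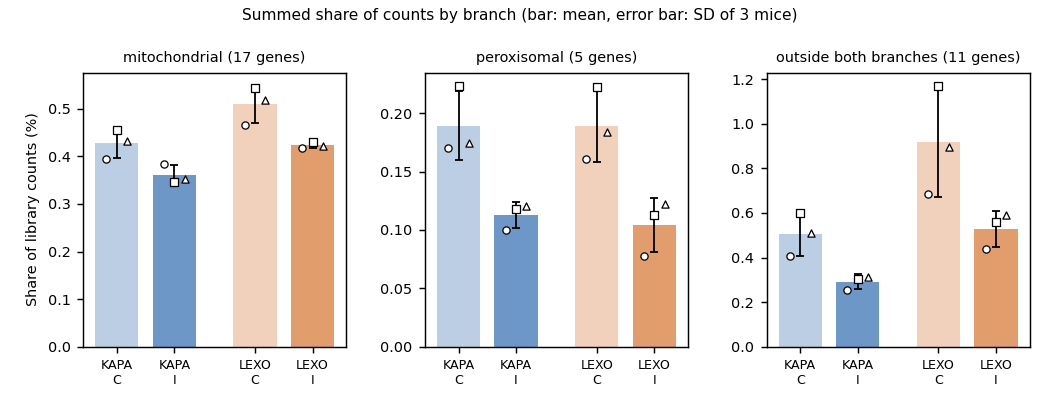
Bars give the mean share of a library's counts (%) taken by the genes of each branch in control (C) and iron-loaded (I) mice for Trad-KAPA and 3’-LEXO, with the SD of 3 mice as error bar and each mouse as a point. In each panel and kit the lowest control point lies above the highest iron-loaded point, as for the peroxisomal genes in Trad-KAPA with means of 0.189% and 0.113%.

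Ppara (ENSMUSG00000022383, chromosome 15 of GRCm38 from 85734983 to 85802819), the receptor itself, had 170.5, 240.5 and 198 CPM in control mice 1, 2 and 3 and 142, 236 and 234 CPM in iron-loaded mice 1, 2 and 3 in Trad-KAPA. Its 3’-LEXO levels were 200.2, 254 and 245 CPM in control and 174.5, 244 and 257 CPM in iron-loaded mice. The groups overlapped in both kits, and iron-loaded mouse 1 was the lowest library of each kit. The Trad-KAPA log2 fold change of -0.05 ± 0.23 (SE) had an edgeR adjusted p of 0.89, and the 3’-LEXO value of -0.10 ± 0.20 one of 0.787. A list of 16 further receptors and coregulators held partners of PPAR-alpha and also separate receptors, Pparg among them. In Trad-KAPA, Pparg and Lpin1 were called higher and none lower, against 8.77% and 8.37% of all genes tested. None was called in 3’-LEXO, against 3.17% higher and 2.92% lower. The median log2 fold changes of the list were 0.09 and 0.06. In each kit 7 of the 16 had all iron-loaded libraries above all control libraries, against 24.7% and 18.5% of all genes tested. All iron-loaded libraries were below for 2 in Trad-KAPA and 1 in 3’-LEXO, against 16.6% and 12.8%.

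Among the genes of uptake, binding, activation and droplet storage, Plin2, Fabp1 and Acsl1 were called lower in Trad-KAPA and Plin2 also in 3’-LEXO. Plin2 (ENSMUSG00000028494, chromosome 4 from 86648386 to 86670060) encodes the perilipin that coats lipid droplets of hepatocytes. Its level was 587, 765 and 694 CPM in control and 276, 271 and 273.5 CPM in iron-loaded mice in Trad-KAPA, and 439, 646 and 544 CPM against 222, 231 and 229 CPM in 3’-LEXO. The groups were far apart in both kits, and the iron-loaded mice lay within a few CPM of each other. Plin2 fell in each, with log2 fold changes of -1.39 ± 0.14 (SE; edgeR adjusted p = 0.00148) and -1.31 ± 0.17 (0.00393), and it stayed called without any single mouse in both kits.

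Fabp1 (ENSMUSG00000054422, chromosome 6 from 71199827 to 71205023), the abundant fatty acid binding protein of the hepatocyte cytosol, had 1446, 2332 and 2120 CPM in control and 555, 996 and 1025 CPM in iron-loaded mice in Trad-KAPA. In 3’-LEXO the values were 4118, 8182 and 5971 CPM against 2281, 3266 and 3523 CPM. Neither kit showed an overlap of the groups, and iron-loaded mouse 1 was lowest in both. The log2 fold change of -1.26 ± 0.29 was called in Trad-KAPA (edgeR adjusted p = 0.0227), whereas in 3’-LEXO the log2 fold change of -1.06 ± 0.28 had an adjusted p of 0.0546. Acsl1 (ENSMUSG00000018796, chromosome 8 from 46471037 to 46536051), which activates long-chain fatty acids to acyl-CoA, had 1204, 1650 and 1404 CPM in control and 906, 928 and 981 CPM in iron-loaded mice in Trad-KAPA, and 706, 1104 and 806 CPM against 547, 583 and 541.5 CPM in 3’-LEXO. It was likewise apart in both kits and called in Trad-KAPA alone, with log2 fold changes of -0.67 ± 0.15 (edgeR adjusted p = 0.0227) and -0.70 ± 0.19 (0.0556). Cd36, a fatty acid translocase of the plasma membrane, overlapped between the diets in both kits, with means of 38.2 ± 12.3 (SD, n = 3) and 42.7 ± 2.15 CPM in Trad-KAPA.

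Of the carnitine shuttle, Cpt2 was called and Cpt1a, Slc25a20 and Crat were not. Cpt2 (ENSMUSG00000028607, chromosome 4 from 107903981 to 107923610), the carnitine palmitoyltransferase of the inner membrane, had 136, 159.5 and 141.5 CPM in control and 95.5, 92.6 and 95.5 CPM in iron-loaded mice in Trad-KAPA. In 3’-LEXO it had 110.5, 138 and 107 CPM against 72.8, 86.3 and 74.4 CPM. All iron-loaded libraries lay below all control libraries, and no other gene of the mitochondrial branch was called in both kits. Its log2 fold change was -0.69 ± 0.10 in Trad-KAPA (edgeR adjusted p = 0.00647), a call kept without any single mouse, and -0.66 ± 0.15 in 3’-LEXO (0.0367), where it was kept in 2 of 6 fits without 1 mouse. Cpt1a, the malonyl-CoA-sensitive entry step of the outer membrane, gave 592 ± 107 and 654 ± 181 CPM (SD, n = 3) in Trad-KAPA with a log2 fold change of 0.07 ± 0.19, and iron-loaded mouse 1 was its highest library at 864 CPM. Slc25a20, the carnitine-acylcarnitine carrier, had log2 fold changes of -0.29 ± 0.12 and -0.21 ± 0.16, and Crat, the carnitine acetyltransferase found in both compartments, of -0.56 ± 0.20 and -0.39 ± 0.30, all with overlapping groups.

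Among the 9 enzymes of mitochondrial chain shortening, Acads and Hadh were called lower in Trad-KAPA and none in 3’-LEXO. Acads (ENSMUSG00000029545, chromosome 5 from 115110299 to 115119346), the dehydrogenase of short chains, had 147, 156 and 148 CPM in control and 105, 117 and 120.5 CPM in iron-loaded mice in Trad-KAPA, where the groups were apart. Its 3’-LEXO values of 441, 305 and 399.5 CPM against 195, 347 and 310.5 CPM overlapped. The log2 fold changes were nonetheless close at -0.46 ± 0.11 (edgeR adjusted p = 0.0283) and -0.48 ± 0.25 (0.258). Hadh (ENSMUSG00000027984, chromosome 3 from 131233419 to 131272101), the dehydrogenase of medium- and short-chain hydroxyacyl-CoA, had 386, 421 and 421 CPM in control and 241, 320.3 and 323 CPM in iron-loaded mice in Trad-KAPA, and 754, 1033 and 917 CPM against 521, 692 and 707 CPM in 3’-LEXO. The groups were apart in both kits, with log2 fold changes of -0.54 ± 0.16 (edgeR adjusted p = 0.0495) and -0.55 ± 0.20 (0.123).

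The other 7 enzymes of this cycle were not called in either kit, and their log2 fold changes lay between -0.53 and -0.03 in Trad-KAPA and between -0.58 and 0.17 in 3’-LEXO. Acaa2, the thiolase of the cycle, was at the lower end in both kits at -0.53 ± 0.16 and -0.58 ± 0.19, with groups apart in each. Acadl, the dehydrogenase of long chains, was at the upper end at -0.03 ± 0.12 and 0.17 ± 0.16. The very-long-chain dehydrogenase Acadvl came closest to a call in Trad-KAPA after the called genes, with -0.38 ± 0.11 (edgeR adjusted p = 0.0521) and -0.29 ± 0.15 in 3’-LEXO, and groups apart in both. Between these lay Acadm, the dehydrogenase of medium chains, with -0.31 ± 0.13 and -0.17 ± 0.16, and Echs1, the hydratase of short chains, with -0.28 ± 0.11 and -0.21 ± 0.14. The subunits of the trifunctional protein, Hadha and Hadhb, gave Trad-KAPA values of -0.30 ± 0.13 and -0.25 ± 0.17 and 3’-LEXO values of -0.34 ± 0.15 and -0.32 ± 0.19.

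Eci1 and Decr1, mitochondrial auxiliary enzymes that prepare unsaturated chains for the cycle, were called lower in Trad-KAPA. Eci1 (ENSMUSG00000024132, chromosome 17 from 24426641 to 24439348), an enoyl-CoA isomerase, had 68.1, 86.7 and 74.5 CPM in control and 65.7, 45.6 and 49.0 CPM in iron-loaded mice in Trad-KAPA, and 35.01, 62.1 and 42.5 CPM against 50.5, 25.5 and 32.6 CPM in 3’-LEXO. The groups overlapped in 3’-LEXO through iron-loaded mouse 1, and the log2 fold changes were -0.59 ± 0.15 (edgeR adjusted p = 0.0291) and -0.42 ± 0.26 (0.338). Decr1 (ENSMUSG00000028223, chromosome 4 from 15917240 to 15945507), the dienoyl-CoA reductase, had 120.3, 152 and 138 CPM in control and 104, 102 and 102 CPM in iron-loaded mice in Trad-KAPA. In 3’-LEXO its levels were 201, 215 and 241.5 CPM against 203, 187 and 202.5 CPM, which overlapped. The log2 fold changes were -0.48 ± 0.12 (edgeR adjusted p = 0.0286) and -0.21 ± 0.15 (0.414). Eci2, an isomerase of both compartments, stayed near 0 at -0.11 ± 0.10 and -0.11 ± 0.15.

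Of the electron transfer genes, which carry electrons from the acyl-CoA dehydrogenases to the respiratory chain, Etfb was called in Trad-KAPA. Etfb (ENSMUSG00000004610, chromosome 7 from 43444083 to 43457800), the beta subunit of the electron transfer flavoprotein, had 43.4, 44.7 and 47.8 CPM in control and 39.6, 35.3 and 33.5 CPM in iron-loaded mice in Trad-KAPA. The 3’-LEXO libraries gave 583, 546 and 675 CPM against 513, 509 and 532 CPM. The groups were apart in both kits, with log2 fold changes of -0.40 ± 0.10 (edgeR adjusted p = 0.0344) and -0.28 ± 0.16 (0.325). The alpha subunit Etfa and the dehydrogenase Etfdh, which passes the electrons to ubiquinone, gave -0.27 ± 0.12 and -0.39 ± 0.13 in Trad-KAPA, with groups apart, and -0.09 ± 0.15 and -0.23 ± 0.14 in 3’-LEXO.

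In the peroxisomal branch, Acaa1b was called lower in both kits and Ehhadh in Trad-KAPA. Acaa1b (ENSMUSG00000010651, chromosome 9 from 119148023 to 119157093) is 1 of the 2 genes of the peroxisomal thiolase. Its level was 551, 825 and 541 CPM in control and 93.8, 271 and 278 CPM in iron-loaded mice in Trad-KAPA, and 1175, 1715 and 1348 CPM against 269, 669 and 744 CPM in 3’-LEXO. All iron-loaded libraries were below all control libraries, and iron-loaded mouse 1 was far below the other two. Acaa1b fell with a log2 fold change of -1.63 ± 0.39 in Trad-KAPA (edgeR adjusted p = 0.0278), a call kept in 3 of 6 fits without 1 mouse, and of -1.37 ± 0.35 in 3’-LEXO (0.0466), kept in 1 of 6.

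Acaa1a, the other thiolase gene (chromosome 9 from 119339676 to 119350299), was not called, with 153 ± 10.02 and 133 ± 12.4 CPM (SD, n = 3) in Trad-KAPA and 193 ± 11.0 and 196 ± 3.05 CPM in 3’-LEXO. The coding sequences of the pair were identical at 96.54% of 1272 aligned bases in GENCODE M21, so a read of 50 bases can match both and is then lost from counts of uniquely mapped reads. Of the 50-base stretches in Acaa1b transcripts, 39.6% also occurred in transcripts of other genes, and of those that lie in the last 300 bases, 90.4%. They included stretches of Acaa1a and of Dlec1, which lies on the opposite strand, and whether strand was used in counting is not given in the sources used here. The last 60 coding bases of the pair are shown because they differ at a single base, in capitals.
Acaa1a: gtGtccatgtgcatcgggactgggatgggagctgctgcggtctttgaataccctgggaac
Acaa1b: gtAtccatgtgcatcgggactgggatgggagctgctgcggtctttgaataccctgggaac

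Ehhadh (ENSMUSG00000022853, chromosome 16 from 21761287 to 21787807), the bifunctional enzyme of the classical peroxisomal cycle, was the gene of the set whose diet change differed most between the kits. Trad-KAPA gave 475, 623 and 482 CPM in control and 260.5, 295 and 310.4 CPM in iron-loaded mice, whereas 3’-LEXO gave 28.3, 28.2 and 41.7 CPM and 26.6, 46.0 and 40.0 CPM. The diets were apart in Trad-KAPA and mixed in 3’-LEXO. Ehhadh fell in Trad-KAPA with a log2 fold change of -0.93 ± 0.15 (edgeR adjusted p = 0.00793), a call kept without any single mouse, and the value was 0.14 ± 0.25 in 3’-LEXO (0.777). In a fit over the 12 libraries, the diet changes of the kits differed by 1.06 ± 0.32 (3’-LEXO minus Trad-KAPA, log2 scale, the interaction term), with an unadjusted p of 0.00505 and an adjusted p of 1 in edgeR. With the mouse as a block it was 1.05 ± 0.19, with an adjusted p of 0.0583. No 50-base stretch of its transcripts occurred in another gene.

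No gene of the set was called for a different diet change in the kits, and of the 14384 genes tested 0.0% were called. At an unadjusted p below 0.05 there were 402 genes, or 2.79%, with Ehhadh the only one of the 35. With the mouse as a block, which takes equal replicate numbers in both kits as the same RNA, 5 genes were called, none of them in the set. In that fit 1026 genes, or 7.13%, had an unadjusted p below 0.05. Among these were 6 of the 35, namely Ehhadh, Decr1, Decr2, Acaa1a, Acaa1b and Acot1. Genes called in Trad-KAPA alone are therefore not shown to differ between the kits.

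The other genes of the peroxisomal branch were not called in either kit. Hsd17b4, the bifunctional enzyme that also handles branched chains and bile acid precursors, gave log2 fold changes of -0.28 ± 0.12 in Trad-KAPA and -0.19 ± 0.15 in 3’-LEXO. Decr2, the peroxisomal dienoyl-CoA reductase, gave -0.33 ± 0.16 and 0.06 ± 0.21, and its groups were apart in Trad-KAPA only.

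Acot1 changed most among the acyl-CoA thioesterases, which release free fatty acid from acyl-CoA. Acot1 (ENSMUSG00000072949, chromosome 12 from 84009490 to 84018371), the cytosolic enzyme, had 8.10, 35.8 and 16.5 CPM in control and 4.28, 2.60 and 2.08 CPM in iron-loaded mice in Trad-KAPA. In 3’-LEXO it had 38.9, 141 and 75.3 CPM against 26.9, 11.2 and 15.3 CPM. The groups did not overlap, although the control mice spread over a wide range, with mouse 2 highest. Acot1 fell with log2 fold changes of -2.82 ± 0.53 (edgeR adjusted p = 0.0127) and -2.31 ± 0.43 (0.0176). Without control mouse 2 the log2 fold change was -2.14 in Trad-KAPA, still called, and -1.78 in 3’-LEXO, where the call was lost.

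Acot2 and Acot4, its neighbours on chromosome 12 with mitochondrial and peroxisomal products, were not called. Acot2 was at 10.7, 20.5 and 10.3 CPM in control and 39.2, 10.5 and 10.2 CPM in iron-loaded mice in Trad-KAPA, with iron-loaded mouse 1 at 3.78 times the mean of the other iron-loaded mice, and at 4.36 times in 3’-LEXO. Its log2 fold change of 0.44 ± 0.50 in Trad-KAPA became negative without that mouse, at -0.45. Acot4 overlapped between the diets, at -0.50 ± 0.27 and -0.54 ± 0.29, with control mouse 2 at 353 CPM and the other control mice at 175 and 163 CPM in Trad-KAPA. Acot1 and Acot2 were identical at 95.31% of 1236 aligned coding bases, and they shared 527 stretches of 50 bases. Reads from these stretches match both genes. In the last 300 bases, 0.0% of the stretches of Acot1 and 0.8% of those of Acot2 occurred in other genes. The following 60 coding bases near their ends differ at 5 positions, in capitals.
Acot1: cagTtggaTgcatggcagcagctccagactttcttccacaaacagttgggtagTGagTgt
Acot2: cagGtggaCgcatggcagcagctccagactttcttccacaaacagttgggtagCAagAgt

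The remaining targets are Bdh1, Pdk4 and Vnn1. Bdh1, the mitochondrial dehydrogenase that makes the ketone body 3-hydroxybutyrate, was not called, at -0.30 ± 0.13 and -0.15 ± 0.17. Pdk4 (ENSMUSG00000019577, chromosome 6 from 5483351 to 5496309), the kinase that switches off pyruvate dehydrogenase in fasting, had 15.95, 37.3 and 34.1 CPM in control and 17.5, 11.8 and 12.7 CPM in iron-loaded mice in Trad-KAPA, and 2.501, 5.87 and 4.82 CPM against 3.37, 3.17 and 2.09 CPM in 3’-LEXO. It was the only called gene whose groups overlapped in the kit of its call, through control mouse 1, with log2 fold changes of -1.14 ± 0.31 (edgeR adjusted p = 0.038) and -0.67 ± 0.34 (0.252). Vnn1 (ENSMUSG00000037440, chromosome 10 from 23894688 to 23905343), the pantetheinase vanin-1, had 16.7, 36.8 and 23.6 CPM in control and 7.78, 10.5 and 9.92 CPM in iron-loaded mice in Trad-KAPA, and 5.502, 14.1 and 7.45 CPM against 2.99, 4.94 and 4.00 CPM in 3’-LEXO. Here the groups were apart in both kits. Vnn1 fell in Trad-KAPA with a log2 fold change of -1.51 ± 0.28 (edgeR adjusted p = 0.0127), kept without any single mouse, and the value was -1.23 ± 0.35 in 3’-LEXO (0.0646).

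**Figure D3:**
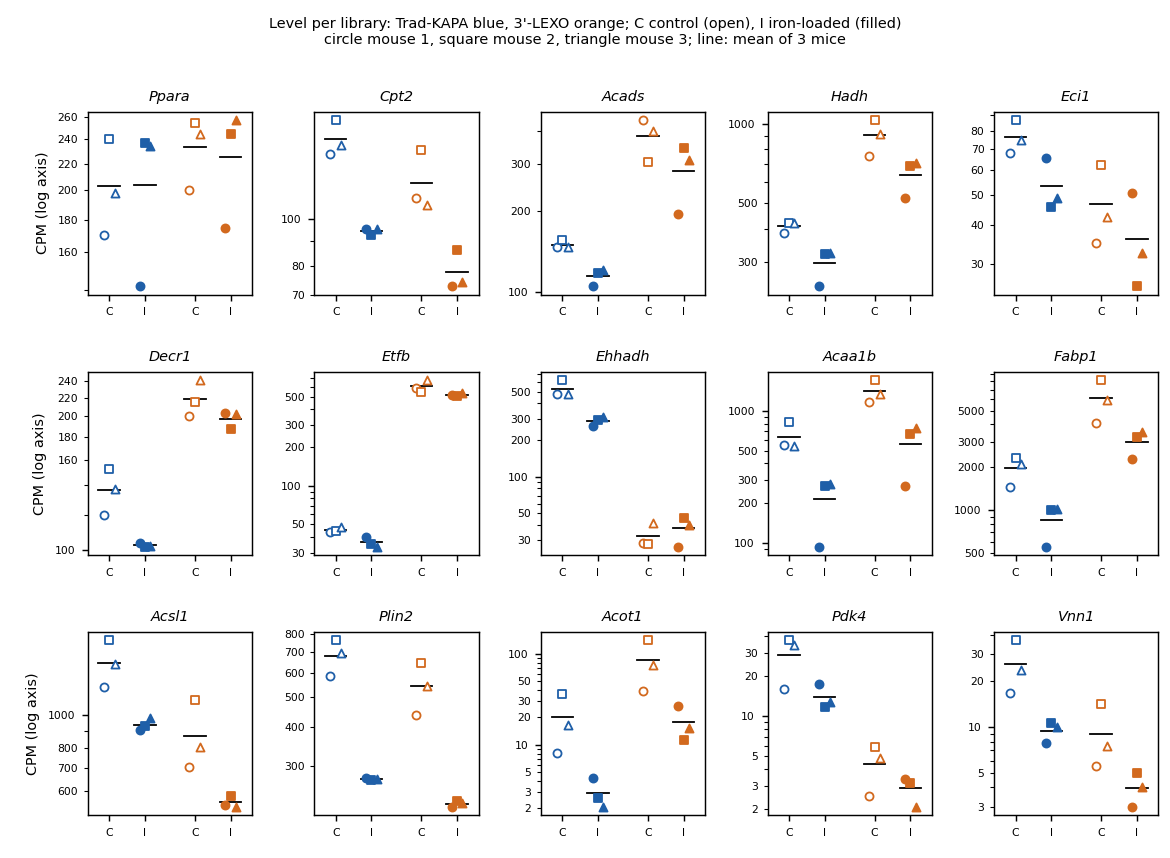
Levels in CPM on log axes are shown for Ppara and the 14 called genes in each of the 12 libraries, with control mice as open and iron-loaded mice as filled symbols and the mean of 3 mice as a line. Plin2 and Cpt2 are apart by diet in both kits, Ppara overlaps, and Ehhadh is apart in Trad-KAPA but not in 3’-LEXO.

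Mice of the same diet differed in a similar way in both kits. Control mouse 2 was the highest control mouse in 28 of the 35 genes in Trad-KAPA and in 25 in 3’-LEXO, and control mouse 1 was the lowest in 28 and 26. These counts used CPM and were not made over all genes, so they are not shown to be particular to the set. The same control mouse was highest in both kits for 26 genes, and the same iron-loaded mouse for 20. Acot1, Acot2, Acot4 and Vnn1 departed most in control mouse 2, at 2.91, 1.96, 2.09 and 1.83 times the mean of the other control mice in Trad-KAPA. Iron-loaded mouse 1 departed in both directions, with Acot2, Acot1 and Cpt1a at 3.78, 1.83 and 1.57 times the mean of the other iron-loaded mice and Acaa1b, Fabp1 and Ppara at 0.342, 0.549 and 0.602 times. Its deviations over the 35 genes had a Pearson r of 0.906 between the kits, and those of the other mice from 0.679 to 0.899. These values only describe genes of libraries paired by replicate number.

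**Figure D4:**
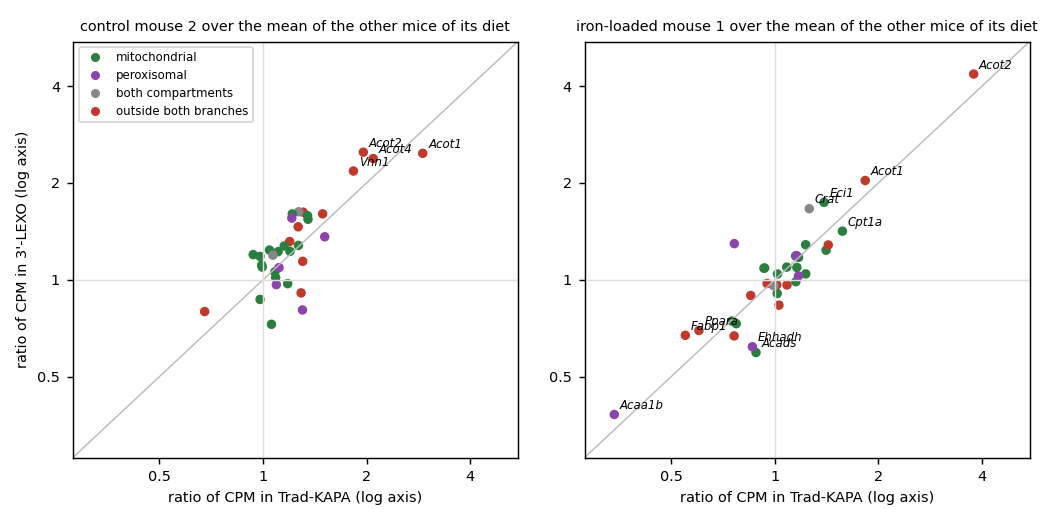
Each point is 1 of the 35 genes, with the ratio of its CPM in the named mouse to the mean of the other mice of the diet in Trad-KAPA (x) and 3’-LEXO (y), both on log axes, and the grey diagonal marks equal ratios. Most genes of control mouse 2 lie above 1 in both kits, while iron-loaded mouse 1 ranges from Acaa1b at 0.342 to Acot2 at 3.78 in Trad-KAPA.

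The levels of the genes among themselves were compared per length in Trad-KAPA, as RPKM over the merged exons, and as CPM in 3’-LEXO. Fabp1 was highest at 2554 ± 1254 RPKM (SD, n = 6 mice), followed by Acaa2 at 359 ± 72.1 and Acaa1b at 217 ± 134. Ehhadh and Plin2 came next at 137 ± 47.6 and 136 ± 65.8 RPKM and did not differ beyond their spread. These means cover both diets. In control mice alone Acaa1b, Plin2 and Ehhadh ranked 3rd to 5th at 326 ± 82.1, 194 ± 25.6 and 177 ± 28.04 RPKM (SD, n = 3), and in iron-loaded mice Acadl was 3rd at 118.5 ± 14.7, with Acaa1b 4th at 109 ± 53.2, Ehhadh 7th at 96.8 ± 8.58 and Plin2 12th at 77.8 ± 0.729 RPKM. The lowest were Acot1, Hadhb, Pdk4, Vnn1 and Acot2 at 2.95 ± 3.32, 3.46 ± 0.648, 6.14 ± 3.19, 7.26 ± 4.58 and 7.69 ± 5.30 RPKM, and of these neighbours each lay within the spread of the next. With the length of the longest transcript in place of the merged exons, Plin2 moved to 253 RPKM and Acsl1 from 112.5 to 208. Fabp1 was also highest in 3’-LEXO, at 4557 ± 2156 CPM, while Ehhadh ranked 30th there, against 4th in Trad-KAPA over merged exons and 9th over the longest transcript.

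The ratio of 3’-LEXO to Trad-KAPA CPM ranged from 0.0963 ± 0.0417 (SD, n = 6) for Ehhadh to 13.9 ± 1.28 for Etfb. The ratio of Ehhadh was 0.0637 ± 0.0209 (SD, n = 3) in control and 0.129 ± 0.0268 in iron-loaded mice, that of Etfb 13.3 ± 0.959 and 14.4 ± 1.46. Next to them were Pdk4 at 0.180 ± 0.0470 and Crat at 0.228 ± 0.0380 on the low side, and Acot1 at 5.21 ± 1.31, Fabp1 at 3.33 ± 0.479 and Hadhb at 3.07 ± 0.243 on the high side. Hadhb had 22.8 ± 4.27 CPM in Trad-KAPA while Hadha, the other subunit of the same protein, had 370.5 ± 51.4 CPM, and the values in 3’-LEXO were 70.0 ± 15.6 and 223 ± 31.4 CPM. Stretches of 50 bases shared with other genes made up 44.8% of Etfb, mostly with Gm45233, 19.7% of Hadhb, mostly with Gm13910, and 26.9% of Acadvl, all with Dvl2 on the opposite strand. In the last 300 bases these shares were 7.97% for Etfb, 0% for Hadhb and 82.5% for Acadvl. What part they had in the levels was not tested. In 11 of the 35 genes, among them Ppara, Fabp1, Cpt2, Acads, Decr1, Ehhadh and Vnn1, no stretch was shared.

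**Figure D5:**
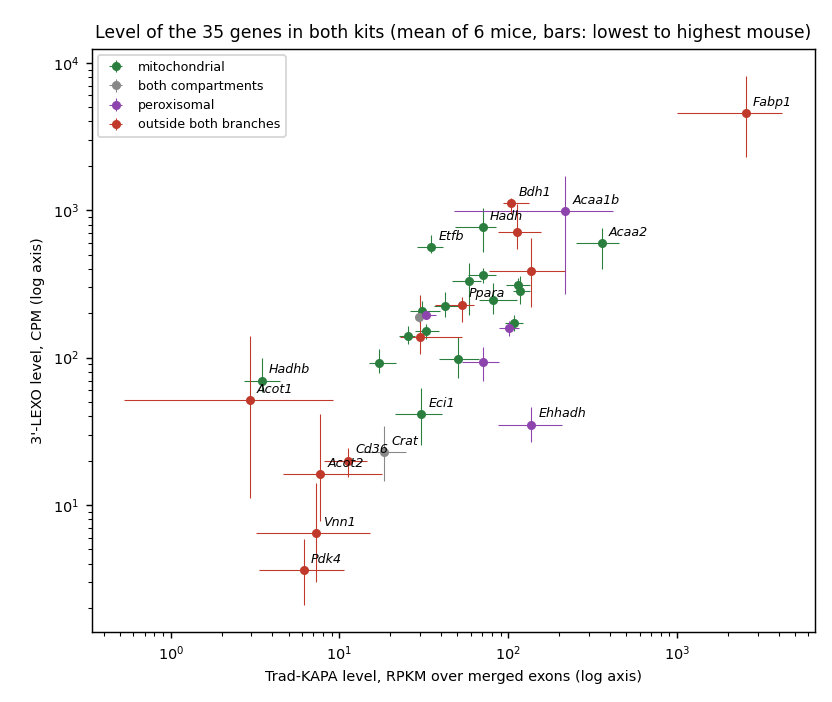
The mean level of each of the 35 genes over 6 mice is drawn as RPKM in Trad-KAPA against CPM in 3’-LEXO, on log axes, with bars from the lowest to the highest mouse and colours by branch. Fabp1 lies at the top of both axes, Ehhadh lies below the other genes of its Trad-KAPA level, and Etfb, Hadhb and Acot1 lie above theirs.

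Promoters were searched for the element of PPAR-alpha and its partner, the unit AGGTCA repeated after 1 base of any kind, on both strands of the 250 bases before each RefSeq start (GRCm38.p6). Of the 12 fixed letters, up to 2 mismatches were allowed. Such a match was found for 6 of the 30 genes of the set with a window, and for 3.719% of all 27025 genes with one. With up to 3 mismatches the shares were 36.67% of the set and 23.652% of all genes. The set was chosen in part as targets of PPAR-alpha, so these shares describe it and do not test it. No gene of the set had a full match, and Fabp1 had the only match with 1 mismatch, centred 61 bases before the start. The 6 windows are printed because they are the closest matches in the set, with up to 20 flanking bases and the matched letters and their spacer in capitals, 5′ to 3′ on the strand of the gene. Fabp1, at chr6:71199792-71199844 on the plus strand, and Plin2, at chr4:86670252-86670304 on the minus strand, were called lower in the diet comparison. Acot4, at chr12:84038346-84038378 on the plus strand, Cd36, at chr5:17835927-17835979, Echs1, at chr7:140116472-140116524, and Etfa, at chr9:55512288-55512340, each on the minus strand, were not.
Fabp1: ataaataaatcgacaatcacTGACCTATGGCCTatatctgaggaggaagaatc
Plin2: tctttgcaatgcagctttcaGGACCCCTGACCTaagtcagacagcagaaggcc
Acot4: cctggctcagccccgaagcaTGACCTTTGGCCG
Cd36: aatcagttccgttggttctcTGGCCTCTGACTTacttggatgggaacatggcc
Echs1: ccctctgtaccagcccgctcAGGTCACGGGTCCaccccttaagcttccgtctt
Etfa: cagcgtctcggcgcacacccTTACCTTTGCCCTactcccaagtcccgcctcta

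In 82 listed genes of related pathways, 21 of the 78 tested (26.9%) were called lower and 9 higher in Trad-KAPA. In 3’-LEXO 6 of 77 (7.8%) were lower and 4 higher. Of all genes tested, 8.37% were called lower and 8.77% higher in Trad-KAPA, and 2.92% lower and 3.17% higher in 3’-LEXO. The related genes called in 3’-LEXO were all called in Trad-KAPA too, and of all genes tested in both kits 2.67% were called higher in both. In omega oxidation, which oxidizes the far end of the chain in the endoplasmic reticulum, 4 of 7 tested genes were lower and 1 higher in Trad-KAPA. That gene, Cyp4a14, a fatty acid hydroxylase known as a PPAR-alpha target, had 27.9, 74.5 and 37.0 CPM in control and 594, 281 and 288 CPM in iron-loaded mice in Trad-KAPA, and 63.1, 141 and 94.2 CPM against 997, 605 and 561 CPM in 3’-LEXO. It thus moved against the 14 called genes, without overlap, and rose by 2.98 ± 0.41 and 2.80 ± 0.31 on the log2 scale (edgeR adjusted p = 0.00494 and 0.00183). Its relatives Cyp4f15 and Cyp4f14 fell, with log2 fold changes of -0.84 ± 0.11 and -0.94 ± 0.18 in Trad-KAPA and of -1.08 ± 0.17 and -0.87 ± 0.21 in 3’-LEXO.

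Among 18 further peroxisomal genes, 7 were lower and 1 higher in Trad-KAPA, and 1 lower and 1 higher in 3’-LEXO. Those called in both kits were Hacl1, the lyase of alpha oxidation, with log2 fold changes of -0.96 ± 0.20 and -1.01 ± 0.24, and Nudt19, a hydrolase of coenzyme A, with 0.69 ± 0.11 and 0.58 ± 0.14. Of 33 genes of fatty acid handling and other targets, 9 of the 30 tested were lower and 5 higher in Trad-KAPA and 3 lower and 2 higher in 3’-LEXO. Lpl, the lipoprotein lipase, which macrophages also express, rose by 2.78 ± 0.19 and 2.42 ± 0.26 on the log2 scale, and the acyl-CoA synthetase Acsl3 by 1.32 ± 0.15 and 1.37 ± 0.19. Acacb, the mitochondrial acetyl-CoA carboxylase whose product inhibits Cpt1a, fell, with log2 fold changes of -1.44 ± 0.22 and -1.46 ± 0.31. Fabp2, the intestinal fatty acid binding protein, gave -1.12 ± 0.21 and -1.07 ± 0.25, and Acadsb, the dehydrogenase of branched short chains, -0.57 ± 0.14 and -0.67 ± 0.14, both called lower in each kit. Of 7 genes of ketone body metabolism, 1 was called lower in Trad-KAPA and none in 3’-LEXO. That gene was Bdh2, which the paper lists under iron metabolism and found lower by RT-qPCR as well. Its level was low, with means of 7.42 CPM in control and 2.60 CPM in iron-loaded mice in Trad-KAPA.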

How the data were processed

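Liver RNA of 6 mice was sequenced in 12 libraries as single-end reads of 50 bp. Mapping by the authors used STAR 2.5.3a and mm10 (GRCm38), and the deposited values are raw counts per gene of uniquely mapped exonic reads, with duplicates kept. The counting program, its strand setting and the annotation release are not given in the sources used here. GENCODE M21 gave names, positions and lengths for 26949 of the 27022 identifiers. CPM was computed from the totals of 10724672 to 16553616 counts, and RPKM from the merged exons.

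Diets were compared within each kit, 3 against 3 libraries, with edgeR 4.0.16 (R 4.3.3, limma 3.58.1): quasi-likelihood F test, TMM, filterByExpr and Benjamini-Hochberg adjustment over all genes tested at 0.05. The SE was the log2 fold change divided by the root of F. The interaction of diet and kit was tested over 12 libraries. DESeq2 1.42.0, other scalings, filters, blocks and leaving out each mouse were alternatives. Fits were also run on simulated counts, with the same dispersion for every gene and libraries drawn independently. The real libraries share mice between the kits, so those runs do not measure accuracy on the real data. Python 3.11.15, numpy 2.4.6 and pandas 2.3.3 were used for the tables.

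Each RNA went into both kits, and libraries of a diet with equal replicate numbers were taken to share a mouse. The paper pairs number 1 of each diet in this way, while the sample titles give only a number within each kit. Over 10326 genes, deviations from the group mean had r of 0.435 to 0.765 between the kits, and each number had its highest r with itself, except that Trad-KAPA mouse 2 on the iron-loaded diet had 0.574 with 3’-LEXO mouse 3 against 0.512. Between diets, equal numbers mark different mice. The labels do not describe separate cages for mice of a diet, so p-values measure the spread between mice within a cage.

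The 35 genes, the related lists and the markers were chosen with earlier results of these data known. All 35 are named, with every library's value for called genes and Ppara. Related genes are named if called in both kits, up to 6 per list by adjusted p in Trad-KAPA. Pparg, Lpin1 and Bdh2, called in Trad-KAPA alone, are named as the only calls of their lists. Of the related genes 82 of 83 were listed.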

Additional observations from a re-analysis of the deposited data

How the results depend on the processing

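All 35 genes passed the expression filter in both kits, and none of the called genes changed direction under any alternative. In Trad-KAPA the 14 calls were 13 with DESeq2's size factors, 12 with library totals, 16 without a filter, 14 with at least 10 counts in 3 libraries and 17 with DESeq2. In 3’-LEXO the 4 calls stayed 4 with other scalings and rose to 10 lower and 1 higher (Acot2) without a filter and to 8 with DESeq2. Leaving out 1 mouse gave 5 to 16 calls in Trad-KAPA and 1 to 4 in 3’-LEXO. With iron-loaded mice 2 and 3 summed there were 7 and 2. Over all genes, the 2255 calls in Trad-KAPA became 841 to 2803 without 1 mouse and 1147 with the sum. The 811 calls in 3’-LEXO became 199 to 871, 445 with the sum, 2040 without a filter, 1321 with DESeq2 and 436 with a replicate block. The replicate number as a block, which pairs no mice across diets (r from -0.163 to 0.0964), gave 12 member calls in Trad-KAPA and 4 in 3’-LEXO, there Acaa1b, Fabp1, Plin2 and Vnn1. For the interaction, the mouse as a replicate block gave 5 calls in place of 0. With library totals the split of Trad-KAPA calls moved from 1154 higher and 1101 lower to 1339 and 838. With the longest transcript, 21 of the 35 levels moved by more than 1 SD. The cause of these shifts was not tested.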

Other observations

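Outside the set, 2 genes of the same biology are given here because of their values, after these were seen. Fgf21, a hormone of the fasted liver and a target of PPAR-alpha, had 1.03, 9.04 and 4.19 CPM in control and 55.6, 5.88 and 6.54 CPM in iron-loaded mice in Trad-KAPA, and 4.501, 15.46 and 8.863 CPM against 80.83, 16.50 and 15.54 CPM in 3’-LEXO. Iron-loaded mouse 1 stood far above every other library in both kits, the groups overlapped in Trad-KAPA and narrowly did not in 3’-LEXO, and the gene was not called, at 2.15 ± 0.95 (edgeR adjusted p = 0.148) and 1.90 ± 0.62 (0.0951) on the log2 scale. Cyp4a10, a close relative of Cyp4a14, had 97.2, 378 and 260.4 CPM in control and 160, 142 and 145 CPM in iron-loaded mice in Trad-KAPA and was not called, at -0.80 ± 0.40 and -0.95 ± 0.41.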
